A study of Mus musculus with 8 samples.

Results

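Open chromatin was compared between 2 libraries labelled Bcl11aMUT_T2 and 2 labelled Bcl11aWT_T2, which are 4 of the 8 libraries of the series. All of them were made by ATAC-seq, in which a transposase cuts accessible DNA and inserts sequencing adapters, from sorted mouse bone marrow cells, the long-term haematopoietic stem cells (HSC). The MUT libraries came from Vav1-cre iMOS Bcl11a-MUT mice and the WT libraries from Vav1-cre iMOS Bcl11a-WT mice, so both groups carry the Vav1-cre and iMOS alleles. The age is 3 months in the titles and 2 to 3 months in another label. The remaining 4 libraries are labelled T1, 2 from each genotype, and were used here only as a second look at regions chosen in T2. What T1 and T2 stand for, which of them carries a Bcl11a transgene, and how many animals gave a library are not given in the sources used here. The p-values below thus reflect only how much these libraries vary, and that variation may be technical. The series' design text names 2 questions, the intrinsic role of Bcl11a in HSC and the effect of its overexpression on neighbouring wild-type HSC.

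BCL11A is a zinc-finger transcription factor that represses its targets together with co-repressor complexes. It is best known for silencing fetal globin genes in erythroid cells, and it is needed for B lymphocyte development and for normal HSC function. Vav1-cre is active throughout the blood lineage. In HSC, accessible sites at gene starts are mostly shared between blood cells, whereas accessible sites inside and between genes include many enhancers and differ more between cell types. A peak list holds only sites above a threshold, so an unlisted site can still be open below that threshold.

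Peaks of the 4 T2 lists were merged into 83739 regions wherever they overlapped. A region was counted as gained when both MUT T2 libraries and no WT T2 library had a peak in it, and as lost in the reverse case. There were 3631 gained regions, 4.34% of all, and 422 lost regions, 0.504% of all. Another 53737 regions, 64.2%, had a peak in all 4 libraries. Just outside the definition of gained, 4992 regions lacked a peak only in WT T2 replicate 2 and 2397 only in WT T2 replicate 1.

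A few gained and lost regions lay on the start of a protein-coding gene, and 5 of these promoters are shown here because they are the gene starts most plainly tied to blood or stem cell genes, or to all libraries of a genotype. They were chosen after their values were seen. The sequences are from RefSeq on GRCm38.p6, 5′ to 3′ along the gene, from 250 bases before the start site to 50 after it. Capitals mark matches on either strand to 6 short motifs. Factors of the GATA family were searched as the letters AGATAA. The RUNX family was searched by the core letters TGTGGT. Members of the ETS family were searched by GGAAGT. The dimer known as AP-1 was searched by TGANTCA. For BCL11A itself the letters were TGNCCA. The insulator protein CTCF was searched by CCCTC, which is only a piece of its full motif. Fcrl5 encodes an Fc receptor-like protein of B cells, Cd244a a SLAM family receptor, Clec4a3 a C-type lectin of myeloid cells, Angptl7 a secreted angiopoietin-like protein, and Mllt6 a partner of MLL in leukaemia fusions. The first 3 promoters are gained and the last 2 lost.
Fcrl5, chr3:87435532-87435831, plus strand: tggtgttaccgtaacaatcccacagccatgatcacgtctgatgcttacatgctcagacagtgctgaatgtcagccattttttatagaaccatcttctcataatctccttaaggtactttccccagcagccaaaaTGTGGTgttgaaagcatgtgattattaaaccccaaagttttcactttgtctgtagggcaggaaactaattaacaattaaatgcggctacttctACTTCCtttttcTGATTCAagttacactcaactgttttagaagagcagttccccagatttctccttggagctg
Cd244a, chr1:171558943-171559242, plus strand: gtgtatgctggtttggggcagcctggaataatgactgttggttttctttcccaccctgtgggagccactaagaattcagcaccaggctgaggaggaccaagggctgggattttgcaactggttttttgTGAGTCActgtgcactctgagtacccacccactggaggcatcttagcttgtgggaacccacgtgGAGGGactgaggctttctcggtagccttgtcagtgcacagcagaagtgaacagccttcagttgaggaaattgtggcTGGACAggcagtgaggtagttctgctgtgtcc
Clec4a3, chr6:122952394-122952693, plus strand: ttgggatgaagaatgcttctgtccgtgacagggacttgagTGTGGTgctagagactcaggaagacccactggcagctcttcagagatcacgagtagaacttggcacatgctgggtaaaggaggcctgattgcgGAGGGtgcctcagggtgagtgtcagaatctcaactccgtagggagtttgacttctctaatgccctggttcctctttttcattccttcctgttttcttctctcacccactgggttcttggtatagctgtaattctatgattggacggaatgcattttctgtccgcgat
Angptl7, chr4:148500413-148500712, minus strand: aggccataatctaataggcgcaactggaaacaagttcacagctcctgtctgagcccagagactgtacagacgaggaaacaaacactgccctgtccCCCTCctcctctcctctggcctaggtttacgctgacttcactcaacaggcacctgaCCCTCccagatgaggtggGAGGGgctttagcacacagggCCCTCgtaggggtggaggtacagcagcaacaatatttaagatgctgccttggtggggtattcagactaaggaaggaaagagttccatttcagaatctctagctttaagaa
Mllt6, chr11:97663162-97663461, plus strand: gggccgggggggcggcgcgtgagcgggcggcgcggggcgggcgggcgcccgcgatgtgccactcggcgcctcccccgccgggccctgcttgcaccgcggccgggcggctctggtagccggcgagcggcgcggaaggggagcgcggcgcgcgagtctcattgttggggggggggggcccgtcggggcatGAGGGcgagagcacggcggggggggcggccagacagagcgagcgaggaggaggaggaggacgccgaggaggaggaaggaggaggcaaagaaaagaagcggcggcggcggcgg

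In the Fcrl5 promoter the fold enrichment, the authors' ratio of a peak's summit to its local background, was 5.70 and 6.09 in the MUT T2 libraries. MUT T1 replicate 2 had a peak of 3.62 there and no other library had one. The Cd244a promoter had 4.53 and 4.40 in MUT T2, 3.88 and 5.05 in MUT T1, and 3.79 in WT T1 replicate 2. At Clec4a3 the MUT T2 values were 5.70 and 5.36, and no T1 library had a peak. The Angptl7 promoter is the reverse of these: WT T2 had 5.88 and 7.07, WT T1 had 5.24 and 4.45, and no MUT library of either population had a peak. At Mllt6 the values in WT T2 were 2.75 and 2.20, close to the lower limit of the lists, and no T1 library had a peak. In all, 16 genes with 20 annotated promoter windows overlapped a gained region held by the 3 ways of calling described next, and 6 genes with 6 windows overlapped such a lost region.

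Of these windows, AP-1 letters occurred in 4 of 20 gained and in 0 of 6 lost ones, against 7.04% of all 21045 RefSeq promoters of the same length. RUNX letters occurred in 8 gained and 0 lost windows, against 14.7% of all promoters. The BCL11A letters occurred in 8 and 0, against 45.6%, and the GATA letters in 3 and 0, against 9.68%. ETS letters occurred in 4 and 0, against 25.0%. The CTCF letters occurred in 16 and 6, against 70.1%. The windows of 1 gene overlap each other, and a match is a description of letters and not a site.

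The WT T2 lists are the shallower ones. The lists held 74785 and 71239 peaks in MUT T2 and 67271 and 62232 in WT T2 on chromosomes 1 to 19 and X, a difference of means of 8260.5 (exact two-sided permutation p = 0.333, the smallest that 6 arrangements of 2 against 2 allow). The genome-wide background recovered from the deposited values, which stands for depth, was 3.21 and 3.10 in the MUT T2 lists (fragments at a position) and 2.45 and 1.89 in WT T2. A peak over that background needed a fold enrichment of at least 3.32 and 3.41 in the MUT T2 lists and 3.48 and 3.80 in the WT T2 lists to be listed. Depth and genotype therefore cannot be told apart in the lists as deposited. The calls were repeated with an equal number of peaks per list, the 62232 with the highest −log10 p. They were also repeated with depth-matched calls, in which each pileup and its background were scaled to the depth of WT T2 replicate 2 and the threshold of that list was applied.

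With equal numbers of peaks the excess of gained over lost regions nearly disappeared. There were 1571 gained (1.88%) and 1330 lost regions (1.59%), so that 54.2% of the called regions were gained, against 89.6% as deposited. The depth-matched calls gave 3013 gained (3.6%) and 550 lost (0.657%). The 3 ways of calling agreed on 1335 gained regions (1.59%) and 276 lost regions (0.33%). These are 36.8% of the deposited gains and 65.4% of the deposited losses. Requiring only the deposited and the equal-number calls left the same 1335 and 276, so the depth-matched calls removed none of them. A further 1142 gained regions, 31.5%, had no peak left in any list once the lists had equal numbers of peaks. The equal-number cut-offs were a −log10 p of 11.8 and 10.4 in MUT T2 and of 8.56 and 4.90 in WT T2, so this way of calling asks more of the MUT T2 peaks.

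**Figure D1:**
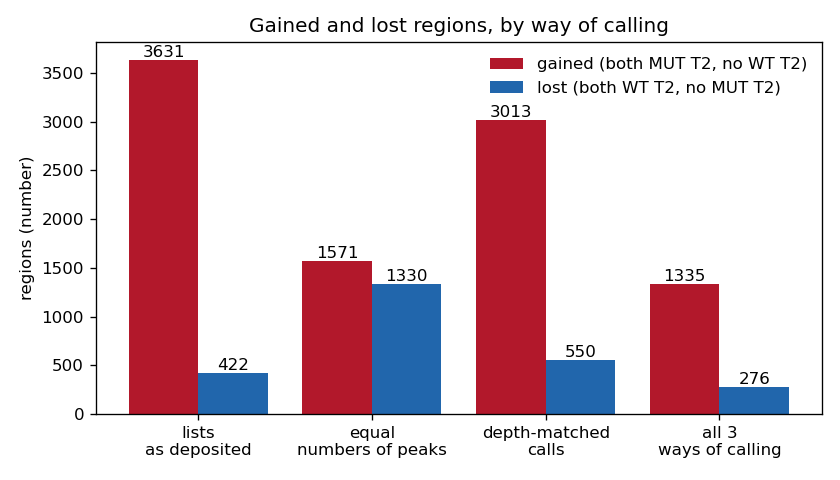
Number of regions gained (red, a peak in both MUT T2 and no WT T2 library) and lost (blue, the reverse) under each way of calling and under all 3 together. The 3631 gained against 422 lost regions of the deposited lists become 1571 against 1330 with equal numbers of peaks.

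The gained and lost regions held by all 3 ways were narrow and lay away from gene ends. Their median widths were 430 bp for gained and 376.5 bp for lost, against 819 bp for regions called in all 4 libraries. Only 5.77% of the gained and 11.6% of the lost regions lay within 1 kb of either end of a protein-coding gene, against 26.2% of the regions shared by all 4 libraries and 18.95% of all regions. Inside genes lay 47.0% of the gained and 44.6% of the lost regions, and 14.9% and 17.4% lay over 50 kb from any gene, against 12.1% of all regions. Of the gained regions 3.22% had a WT T2 peak within 500 bp, and of the lost regions 7.61% had a MUT T2 peak that close. Few gains and losses thus had a listed peak of the other group close by. Overlapping peaks were merged before calling, so these shares cannot show whether a site was a shifted edge of a shared peak.

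The 12 gained regions with the highest fold enrichment among those held by all 3 ways came first by the smaller of their MUT T2 values. The highest, chr6:31803272-31803502 on mm10, had 16.4 and 15.01 in the MUT T2 libraries. It lies 239 kb from the nearest protein-coding gene, and no T1 library had a peak in it. A WT T2 peak ended 0.713 kb away.

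Itga6 encodes integrin alpha 6 (CD49f), a laminin receptor on stem cells and platelets. The gained region inside it, at chr2:71852136-71852792, had 12.8 and 11.9 in MUT T2 and 10.9 and 14.2 in MUT T1. Neither WT T2 library nor either WT T1 library had a peak there, so the 4 MUT libraries and the 4 WT libraries did not overlap. The next WT T2 peak was 8.24 kb away. Itga6 had 9 regions in T2, and 6 of them were listed in every T2 library. At the gene's first end, chr2:71786389-71788178, the values were 7.66 and 7.54 in MUT T2 and 10.1 in both WT T2 libraries. At chr2:71842814-71843896 they were 10.7 and 10.1 in MUT T2 and 9.94 and 9.10 in WT T2. The regions around the gained one were therefore listed in both genotypes.

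Of the other leading gained regions, most were listed in at least 1 WT T1 library. A gained region near Rnase2b, a ribonuclease gene of eosinophils and other myeloid cells, had 13.7 and 11.8 in MUT T2. Both MUT T1 libraries (8.39 and 15.4) and WT T1 replicate 1 (6.84) also had a peak there. One inside Uqcc1, a gene for assembly of mitochondrial complex III, had 12.5 and 11.1 in MUT T2, and 13.5 and 11.01 in WT T1. Inside Fmn1, which encodes the actin nucleator formin 1, MUT T2 had 11.4 and 10.2 and WT T1 had 12.3 and 11.7. The gained region on chromosome 10 that starts at 112801385, 124 kb from a gene, had 13.4 and 12.2 in MUT T2 and was listed in all 4 T1 libraries. Near Ints10, a subunit of the Integrator complex, all 4 T1 libraries had a peak too.

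Near Ptprt, which encodes a receptor tyrosine phosphatase, a gained region of 1085 bp had 10.6 and 10.1 in MUT T2 and 10.5 and 10.8 in MUT T1, and none in WT. A second region near Ptprt, at chr2:161498641-161499414, had 6.65 and 7.31 in MUT T2 and 6.84 and 9.56 in MUT T1, again with none in WT. The Itga6 region and the longer Ptprt region had the highest smaller MUT T2 values among gains that recurred in T1. The remaining named gains were near Prdm8 (a histone methyltransferase family member), Odf3l2, Prpf6 (a splicing factor) and Gabrr1 (a GABA receptor subunit), with 10.2 to 13.8 in MUT T2.

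**Figure D2:**
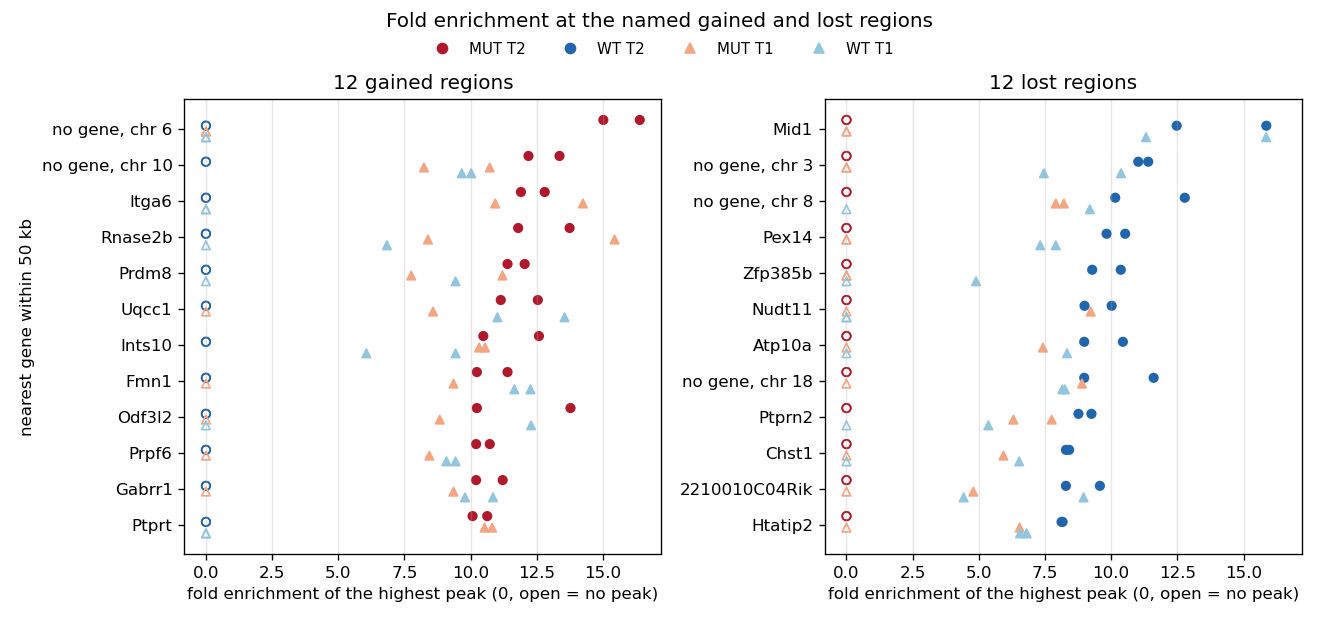
Fold enrichment of the highest peak per library (x axis) at the 12 gained and 12 lost regions with the highest values, by nearest gene (y axis); circles are T2 and triangles T1 libraries, red and orange MUT, dark and light blue WT, and open symbols at 0 mean no peak. Itga6 and Ptprt among the gains and Mid1 and Pex14 among the losses follow the genotype in T1 as well.

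The strongest lost region lay inside Mid1, a ubiquitin ligase gene near the pseudoautosomal boundary of the X chromosome. The WT T2 libraries had 12.5 and 15.9 there and the WT T1 libraries 11.3 and 15.9, and no MUT library had a peak. How reads at this site were placed between chromosomes X and Y was not tested. Inside Pex14, a gene for peroxisomal protein import, WT T2 had 10.5 and 9.83 and WT T1 7.32 and 7.91, again with none in MUT. A lost region on chromosome 3, chr3:60762980-60763218, 133 kb from a gene, had 11.02 and 11.4 in WT T2 and 10.4 and 7.46 in WT T1. These 3 regions separated the genotypes in both populations.

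The other named losses did not separate the genotypes in T1. A lost region on chromosome 8, starting at 115450721, had 10.2 and 12.8 in WT T2 and was listed in both MUT T1 libraries, with 8.21 and 7.91. Inside Ptprn2, a receptor phosphatase gene of secretory vesicles, WT T2 had 9.26 and 8.76 and both MUT T1 libraries had a peak. At the end of Nudt11 the lost region, with 8.99 and 10.02 in WT T2, lay only 0.398 kb from a MUT T2 peak. Inside Atp10a, a phospholipid flippase gene, WT T2 had 10.4 and 8.98. The lost regions near Zfp385b (a zinc-finger gene), Chst1 (a carbohydrate sulfotransferase), 2210010C04Rik and Htatip2 (an oxidoreductase gene) had 8.13 to 10.4 in WT T2.

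The T1 libraries were not used to choose the regions, so they show how often a T2 gain or loss recurred. Of the 3631 deposited gains, 203 (5.59%) had peaks in both MUT T1 and no WT T1 library, a pattern that 1.22% of all regions showed. The opposite pattern, both WT T1 and no MUT T1, occurred at 165 gains (4.54%), against 1.81% of all regions. Regions missing from some lists thus showed both patterns above the background of all regions. Of the 422 deposited losses, 56 (13.3%) were also lost in T1, against 1.81% of all regions, and 10 (2.37%) were gained in T1, against 1.22%.

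Among regions held by all 3 ways, 78 of 1335 gains (5.84%) recurred in T1 and 50 (3.75%) were opposite. Of the 276 losses, 44 (15.9%) recurred and 6 (2.17%) were opposite. MUT T1 replicate 1 had a peak at 80.0% of these gains and MUT T1 replicate 2 at 49.7%, while the WT T1 libraries had one at 64.5% and 69.0%. The MUT T1 values lay on both sides of the WT T1 values, so the T1 genotype groups overlapped at the T2 gains. Over all regions these shares were 84.5% and 73.3% in MUT T1 and 81.5% and 82.7% in WT T1, so MUT T1 replicate 2 was lowest there as well. The losses had a peak in 50% and 28.6% in MUT T1 and 67.0% and 63.4% in WT T1, so the groups did not overlap. With equal numbers of peaks in the T1 lists the losses gave 28.6% and 26.4% in MUT T1 and 50% and 38.4% in WT T1, which do not overlap either. The gains then gave 62.1% and 47.6% in MUT T1 and 52.4% and 55.7% in WT T1, which still overlap. In these equal-number lists 112 of the 1335 gains (8.39%) recurred and 50 (3.75%) were opposite. All regions then showed the gained pattern at 1.678% and the lost pattern at 1.498%. Of the 276 losses, 29 (10.5%) then recurred and 3 (1.09%) were opposite. MUT T1 replicate 2 is the shallowest T1 list, with a background of 2.04 against 3.24 to 3.38 in the others. Without it, 544 deposited gains (14.98%) had a peak in MUT T1 replicate 1 and in no WT T1 library, a looser pattern that 4.11% of all regions showed. No peak in any T1 library was found at 53 of the gains (3.97%) and 27 of the losses (9.78%), against 7.01% of all regions.

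**Figure D3:**
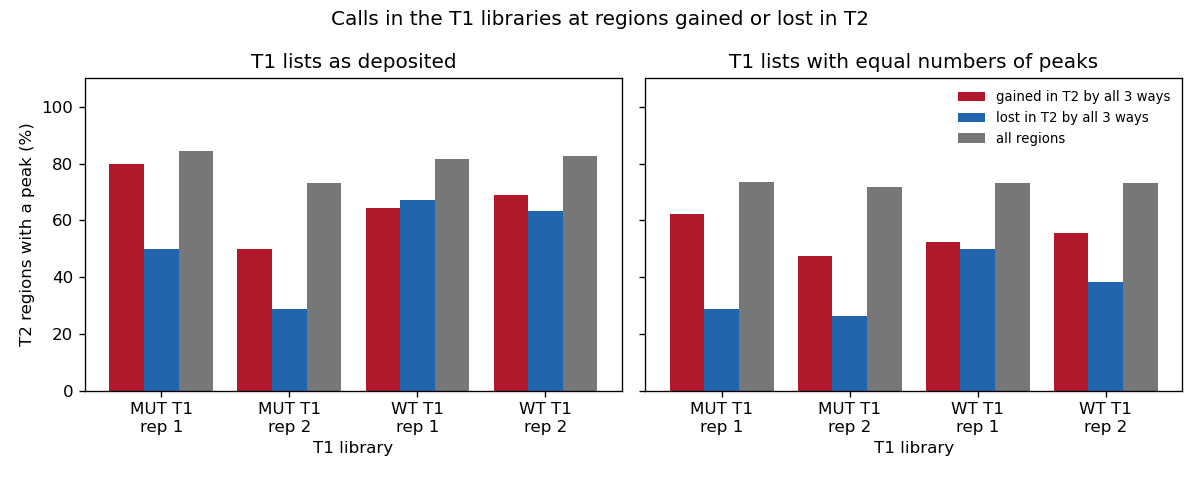
Share of T2 regions with a peak in each T1 library (y axis, %), for the gained (red) and lost (blue) regions held by all 3 ways of calling and for all regions (grey), with the T1 lists as deposited and with equal numbers of peaks. Lost regions are listed less often in the MUT T1 libraries (50% and 28.6%) than in the WT T1 libraries (67.0% and 63.4%), and gained regions vary as much between the MUT T1 libraries as between genotypes.

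Gains that recurred in T1 included a region inside Plekha5, a gene for a phosphoinositide-binding protein, with 8.53 and 8.06 in MUT T2 and 7.26 and 8.90 in MUT T1. A region near Scimp, an adaptor gene of antigen-presenting cells, had 7.83 and 9.61 in MUT T2 and 7.30 and 7.99 in MUT T1. Near Cyp4a12a, a fatty acid hydroxylase gene, MUT T2 had 9.75 and 7.72 and MUT T1 7.57 and 10.8. No WT library of either population had a peak at these 3 sites, which were chosen after their values were seen. Among gains with no peak in any T1 library, one inside Fam126b had 7.12 and 7.07 in MUT T2 and one inside Plekhm1, a gene of lysosome fusion, had 6.99 and 6.76.

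The recurring losses included several other named sites, given here by their fold enrichment and chosen after their values were seen. Inside Acin1, which encodes a splicing-associated protein of apoptotic chromatin condensation, WT T2 had 7.83 and 8.98 and WT T1 8.72 and 5.36. Inside Samd4, an RNA-binding repressor of translation, WT T2 had 7.82 and 8.88 and WT T1 7.49 and 7.15. Inside Oxr1, a gene for resistance to oxidative stress, they were 7.25 and 10.7 in WT T2 and 7.31 and 7.69 in WT T1. At the end of Exosc10, a catalytic subunit of the RNA exosome, WT T2 had 6.91 and 7.0 and WT T1 5.90 and 6.07. None of these had a peak in a MUT library. Exosc10, Angptl7 and Pex14 lie in the same 5 Mb window of chromosome 4, from 145 to 150 Mb, which held 6 of the 276 losses among its 226 regions. That was the most of all 496 windows, whose median was 0. The same window also held 5 gains by all 3 ways (2.21%, against 1.59% of all regions).

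Gains clustered most in the window from 50 to 55 Mb of chromosome 14. It held 19 gains by all 3 ways among 239 regions, 7.95%, against a median of 2 gains per window. Rnase2b lies in it, and it also held 3 losses by all 3 ways (1.26%, against 0.33% of all regions). Chromosome 14 as a whole had 2.49% of its regions gained and chromosome X 2.05%, against 1.59% of all regions. Chromosome X also had the highest share of losses, 0.776%, against 0.563% for chromosome 14 and 0.33% of all regions. Over genes, 1082 had at least 1 gain held by all 3 ways in or near them, 54 had 2 or more and 0 had 3 or more. Losses were spread over 225 genes, and 31 genes had both.

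Gene lists were used to read the regions by function, with each region given to the nearest protein-coding gene within 50 kb. The marker genes of the labelled cells were mostly open at their ends. Of 30 HSC identity genes, 28 had a region called in all 4 libraries within 1 kb of a gene end, against 65.3% of all protein-coding genes. The same count was 12 of 25 for B lymphoid, 14 of 25 for T and natural killer (NK) lymphoid, 11 of 25 for granulocyte and monocyte, 18 of 25 for stromal and endothelial, 17 of 25 for erythroid and 21 of 25 for megakaryocyte and platelet genes. It was 24 of 25 for interferon response, AP-1 and TGF-beta genes alike, so open gene ends were not particular to HSC markers. Accessible gene ends alone do not show that such cells were present, and their part in any difference was not tested.

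The HSC identity genes had few gains. Of their 342 regions 8 were gained as deposited (2.34%, against 4.34% of all regions) and 4 were lost (1.17%, against 0.504%). With equal numbers of peaks 2 were gained (0.585%, against 1.88% of all regions) and 17 lost (4.97%, against 1.59%). Held by all 3 ways were 0 gains and 2 losses (0% and 0.585%, against 1.59% and 0.33% of all regions). The 17 losses with equal numbers belonged to 9 genes, which encode regulators of transcription and, in 1 case, the stem cell factor receptor Kit. Prdm16, a zinc-finger regulator needed for HSC maintenance, had 4 of them, Mecom, its relative, had 3, and Erg, an ETS factor, had 3.

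In the deposited lists 9 of these 17 regions had a peak in both MUT T2 libraries, 6 had one in 1 MUT T2 library and 2 in neither. The Prdm16 region at chr4:154359324-154360548 had a −log10 p of 8.14 and 10.3 in MUT T2 and of 18.99 and 12.4 in WT T2. Its fold enrichment was 4.07 and 4.36 in MUT T2 and 6.34 and 5.42 in WT T2, and all 4 T1 libraries had a peak of 4.16 to 5.03. Both WT T2 libraries stood above both MUT T2 libraries here in both values. The region was chosen from losses under cut-offs that asked more of the MUT T2 peaks, and the part of depth was not tested. Inside Mecom, chr3:30498451-30498918 had a −log10 p of 7.35 and 9.10 in MUT T2 and 13.0 and 11.98 in WT T2, and no T1 library had a peak. The groups overlapped at other regions. The Gata2 region at chr6:88193547-88194255, for example, had a −log10 p of 8.26 and 9.73 in MUT T2 and 9.24 and 9.21 in WT T2.

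The 2 losses held by all 3 ways were inside Erg, with a fold enrichment of 4.16 and 3.84 in WT T2, and at the end of Mecom, with 2.28 and 2.00. The Mecom region was listed in both MUT T1 libraries (2.09 and 2.5) and in neither WT T1 library, the opposite of T2. The 4 leading deposited gains of the list were inside Cd48, with 5.09 and 4.78 in MUT T2, inside Mecom, with 4.75 and 5.10, inside Slamf1, with 3.63 and 3.67, and near Mllt3, with 3.56 and 4.26. Cd48 and Slamf1 encode SLAM receptors used to sort HSC. None of the 4 was gained with equal numbers of peaks.

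Genes of cell adhesion had the largest number of gains. Of 205 regions 16 were gained as deposited (7.80%, against 4.34%) and 0 lost, with equal numbers 7 (3.41%, against 1.88%) against 2 lost, and by all 3 ways 6 (2.93%, against 1.59%) against 0. Beside Itga6 these lay inside Itga1 (7.12 and 9.50 in MUT T2), near Itga4 (6.17 and 5.61), and inside Itga9 (5.16 and 5.27). Itga4 encodes the alpha 4 chain of VLA-4, by which HSC bind to marrow stroma. The Itga1 region had a peak in all 4 T1 libraries, at 6.99 to 7.78, and the Itga4 region in 1 library of each genotype. Only the Itga6 region of this list kept its genotype pattern in T1 among these 4.

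Granulocyte and monocyte genes had 8 gains among 85 regions (9.41%, against 4.34% of all regions), and 3 with equal numbers of peaks (3.53%, against 1.88%). The 3 were near Fcgr3, a low-affinity antibody receptor (8.27 and 5.88 in MUT T2), near Ly6c2, a monocyte surface marker (6.31 and 5.63), and inside Itgam, the CD11b chain (6.65 and 5.12). The single loss lay at the end of Ccr2, the receptor that draws monocytes out of the marrow, with 4.83 and 6.56 in WT T2. It had a peak in both WT T1 libraries and in MUT T1 replicate 1. A deposited gain near Ccr2, chosen after its values were seen, was not held with equal numbers of peaks. That gain had 3.80 and 5.02 in MUT T2 and 5.60 and 5.27 in MUT T1, and none in WT. The list's gene ends were open in all 4 libraries at 11 of 25 genes.

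Genes reported to rise in old HSC had 11 gains among 167 regions (6.59%, against 4.34% of all regions) and 0 losses. By all 3 ways there were 4 gains (2.40%, against 1.59%). Beside Itga6, which is on this list too, these lay near Cd38, an NAD-consuming ectoenzyme (9.73 and 7.80 in MUT T2), near Plscr2, a phospholipid scramblase (6.88 and 5.85), and near Plcl1 (4.40 and 3.17). The Cd38 region had a peak in all 4 T1 libraries and the Plscr2 region in MUT T1 replicate 1 only. With equal numbers the list had 5 gains and 3 losses (2.99% and 1.80%, against 1.88% and 1.59% of all regions).

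TGF-beta and niche signalling genes had 13 gains among 240 regions (5.42%, against 4.34% of all regions) and 0 losses. With equal numbers of peaks there were 6 gains and 6 losses (2.5% each, against 1.88% and 1.59%). The leading gains were inside Smad1, a BMP signal transducer (8.07 and 9.26 in MUT T2), near Tgfb2 (8.54 and 7.07), inside the receptor gene Acvr1 (6.21 and 6.89) and near Smad3 (5.21 and 4.34). The Smad1 and Tgfb2 regions were listed in all 4 T1 libraries.

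In the remaining lists 1.64% to 4.49% of the regions were gained as deposited, against 4.34% of all regions. Interferon response genes had 4 gains among 108 regions (3.70%) and 0 losses, and 3 gains by all 3 ways (2.78%, against 1.59% of all regions). These were near Ifngr1 (4.64 and 3.89 in MUT T2), Ifnar2 (3.70 and 4.10) and Irf2 (3.70 and 4.01). AP-1 and immediate early genes had 4 gains among 137 regions (2.92%) and 0 losses. The 3 gains held (2.19%) were inside Atf3 (6.36 and 6.04), near Nr4a3 (6.17 and 5.61) and near Ier5 (4.40 and 3.93). The Nr4a3 region, near a nuclear receptor gene, had a peak in both MUT T1 and no WT T1 library. The Atf3 region had a peak in all 4 T1 libraries and the Ier5 region in 1 of each genotype.

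Cell cycle and survival genes had 7 gains and 1 loss among 156 regions as deposited (4.49% and 0.641%, against 4.34% and 0.504% of all regions). With equal numbers of peaks there were 4 and 4 (2.56% each, against 1.88% and 1.59%). The gains held were inside Rb1 (6.80 and 6.17), Bcl2l1 (7.24 and 4.37) and Ccnd2 (2.34 and 2.33) and near the CDK inhibitor gene Cdkn1a (4.20 and 3.47), and the loss was inside Bcl2, with 5.51 and 4.57 in WT T2. Inflammation and NF-kB genes had 5 gains and 0 losses among 135 regions (3.70% and 0%), and 3 and 1 with equal numbers (2.22% and 0.741%). Those held were near Nfkb1 (5.70 and 5.63) and inside the interleukin-1 receptor gene Il1r1 (4.88 and 3.81).

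The lineage lists follow, with counts as deposited first. Of all regions 4.34% were gained and 0.504% lost as deposited, and 1.88% and 1.59% with equal numbers of peaks. Erythroid genes had 4 gains (3.57%) and 0 losses among 112 regions, and 1 and 1 with equal numbers (0.893% each). A gain near the spectrin gene Sptb was held (5.70 and 6.34). Megakaryocyte and platelet genes had 2 gains and 1 loss among 122 regions (1.64% and 0.82%), and 1 and 3 with equal numbers (0.82% and 2.46%). A gain inside Nfib was held (5.70 and 6.09). B lymphoid genes had 7 and 1 among 159 (4.40% and 0.629%), and 2 and 2 with equal numbers (1.26% each). Gains near Igll1 (5.68 and 4.70) and inside Bach2 (3.63 and 3.74) were held. T and NK lymphoid genes had 8 and 1 among 186 as deposited (4.30% and 0.538%), but 2 and 6 with equal numbers of peaks (1.08% and 3.23%). Rora, which encodes a nuclear receptor, had 2 gains held (5.03 and 4.46; 4.46 and 4.56) and 1 loss (5.22 and 4.84 in WT T2). Stromal and endothelial genes had 3 and 0 among 124 (2.42% and 0%), and 2 and 1 with equal numbers (1.61% and 0.806%). A gain inside Fbln1, a matrix gene, was held (10.2 and 7.16).

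**Figure D4:**
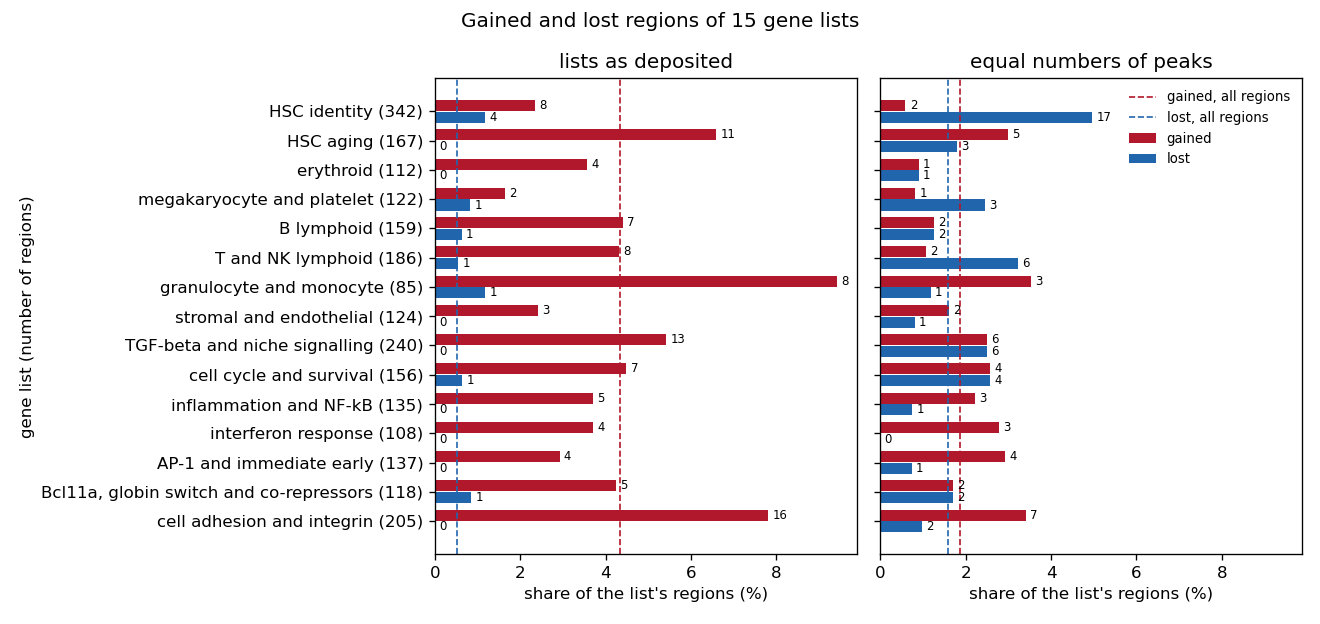
Share of each gene list's regions that was gained (red) or lost (blue) in the lists as deposited and with equal numbers of peaks; numbers beside the bars are counts, and dashed lines are the shares of all 83739 regions. With equal numbers the HSC identity genes had 17 of 342 regions lost, against 1.59% of all regions.

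Bcl11a itself had no region that was gained or lost. The gene, at chr11:24076564-24173558, had 11 regions, with 7 listed in every T2 library. Its start region had 2.97 and 3.15 in MUT T2 and 3.36 and 3.18 in WT T2. At chr11:24111723-24112143 inside the gene the values were 4.07 and 4.69 in MUT T2 and 5.90 and 6.06 in WT T2, and in T1 4.88 and 6.31 in MUT and 3.88 and 4.61 in WT, the other way round. The list of Bcl11a, globin switch and co-repressor genes had 5 gains and 1 loss among 118 regions as deposited (4.24% and 0.847%, against 4.34% and 0.504%). With equal numbers of peaks it had 2 and 2 (1.69% each, against 1.88% and 1.59%). The gains held were inside Chd4, the NuRD helicase (6.17 and 6.82), and Arid1a, a BAF subunit (2.91 and 2.58). The Arid1a region had a peak in both WT T1 libraries (2.83 and 2.25) and in no MUT T1 library, the opposite of T2. The Chd4 region had a peak in both WT T1 libraries and in MUT T1 replicate 1. Sox6, a partner of BCL11A in globin silencing, had a deposited gain with 5.70 and 3.66.

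In the 53737 regions called in all 4 libraries, the height of peaks was compared by the rank of the fold enrichment within each library, turned into a normal score. Fold enrichment itself is not on one scale across libraries, with medians of 6.65 and 6.46 in MUT T2 and 7.25 and 7.66 in WT T2. No region (0%) passed a Benjamini-Hochberg adjusted p of 0.05 in limma, and the smallest adjusted p was 0.556. At p under 0.05 before adjustment there were 4471 regions (8.32%), 2506 of them higher and 1965 lower in MUT T2. With limma's trend and robust moderation 0 passed and 4413 were at p under 0.05. Libraries of a genotype correlated at 0.900 in MUT and 0.891 in WT across regions, and libraries of different genotypes at 0.871 to 0.887. These are correlations across regions, which are not independent replicates.

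Groups did not overlap in 10067 regions that were higher in MUT T2 (18.7%) and in 11510 that were lower (21.4%). With only 6 arrangements of 2 libraries against 2, many regions can separate in this way without a difference between genotypes. The direction went with location. Of 14071 regions at gene ends, 31.5% were lower and 13.2% higher, with a median difference of −0.10 in normal score. Beyond 50 kb from a gene 14.8% were lower and 23.9% higher, with a median of 0.08. Ranked by the summit pileup instead, the gene-end shares were 27.3% and 17.6% and the median −0.04. In the T1 libraries, where the shallowest library is a MUT one, the median at gene ends was 0.07, the other way round. How much depth contributed was not tested.

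**Figure D5:**
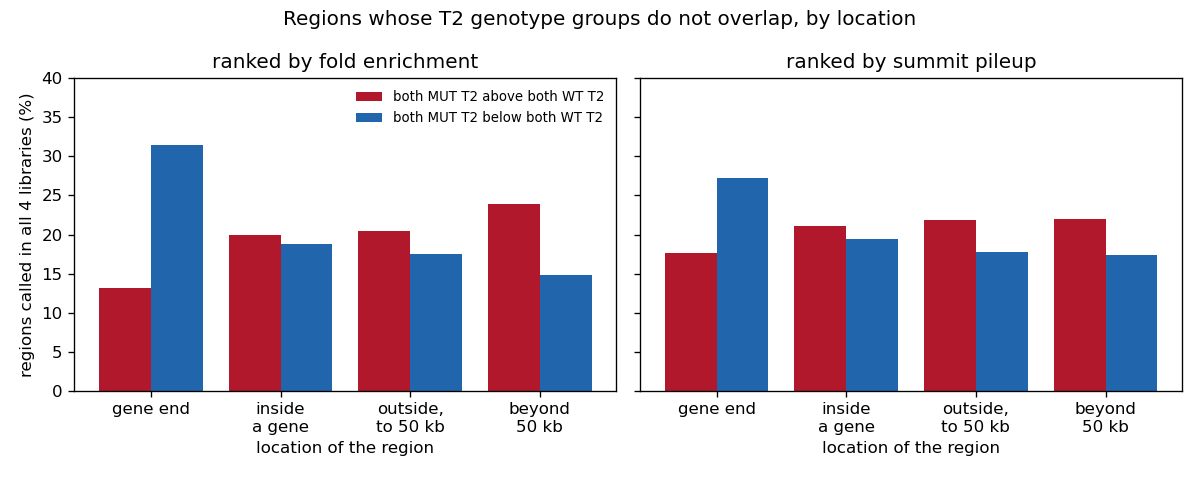
Share of the regions called in all 4 libraries (y axis, %) in which both MUT T2 libraries rank above (red) or below (blue) both WT T2 libraries, by location, with peaks ranked by fold enrichment and by summit pileup. At gene ends 31.5% rank lower in MUT T2 and 13.2% higher by fold enrichment.

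The regions with the largest rank differences, none of which passed the adjusted threshold, are given as descriptions. A region inside Shld1, a shieldin subunit gene of DNA repair, had 16.1 and 14.6 in MUT T2, at percentiles 99.6 and 99.5 of their libraries. In WT T2 it had 7.83 and 11.4, at percentiles 48.8 and 83.3 (difference 2.14 ± 0.34 SE in normal score, limma adjusted p = 0.556). Inside Gbe1, the glycogen branching enzyme gene, the percentiles were 90.0 and 74.4 in MUT T2 and 18.9 and 12.8 in WT T2. Inside Plcb1, a phospholipase C gene, they were 80.5 and 69.2 against 9.64 and 12.8. Inside Col14a1, a collagen gene, they were 68.6 and 75.1 against 9.64 and 12.8. The others among the 10 largest positive differences were near Gm7827, Oxa1l and Rap2b, inside Rhd and Pxk, and at a site on chromosome 4 that is 70.1 kb from a gene.

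The largest negative difference lay inside Kif1b, a kinesin gene on chromosome 4, at percentiles 12.1 and 7.59 in MUT T2 and 67.9 and 69.8 in WT T2 (−1.79 ± 0.25 SE, limma adjusted p = 0.556). Near Kcnip1, a potassium channel partner, the percentiles were 53.5 and 69.2 against 97.0 and 98.7. A further 7 were at the end of Nxf2, inside Osbp2 and Scn10a, near Hpse2 and Tmem179, and at 2 sites over 50 kb from a gene. In a fit over all 8 libraries 49745 regions could be compared, and 0 passed for T2, for T1 or for the difference between them. At p under 0.05 before adjustment there were 3639, 3106 and 3539 regions.

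By list, the median rank difference was small. It was −0.04 for the 195 regions of HSC identity genes called in all 4 libraries, against −0.02 for all regions, with 36 higher and 45 lower among those whose groups did not overlap (18.5% and 23.1%, against 18.7% and 21.4%). Bcl11a, globin switch and co-repressor genes had 8 higher and 18 lower of 72 (11.1% and 25.0%), and their median was −0.05. In that list the region at an end of Sox6 had percentiles of 49.0 and 50.6 in MUT T2 and 79.6 and 79.9 in WT T2 (−0.84 ± 0.25 SE, limma adjusted p = 0.556). Megakaryocyte genes had 9 higher and 17 lower of 84 (10.7% and 20.2%), and erythroid genes 10 and 21 of 75 (13.3% and 28%). Interferon response genes had 16 higher and 13 lower of 69 (23.2% and 18.8%), with a median of 0.02. Across regions called in all 8 libraries the T2 and T1 differences, which share no library, had the same sign in 47.4%.

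Peaks at the Y-linked genes Kdm5d, Eif2s3y, Uty and Ddx3y were present in replicate 1 and absent in replicate 2 of every group. The T2 groups were thus balanced in this respect, and the replicates within a group were not alike.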

How the data were processed

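The authors deposited a MACS2 narrowPeak list for each library, called without pooling. Bowtie2, SAMtools, MACS2 and mm10 are named in the submitters' processing notes, without versions; filters and any shift of cut sites are not given in the sources used here. A deposited peak has an integer score, a fold enrichment (a ratio of summit to local background), a −log10 p-value and a −log10 q-value (lowest 3.00). The members and gene lists were chosen with earlier results of these data known.

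Peaks on chromosomes 1 to 19 and X of the 4 T2 lists were merged where they overlapped by 1 bp or more. Pileup and local background were solved from the deposited fold enrichment and −log10 p-value, returning the latter within 0.001 for at least 99.998% of the peaks of a T2 library. The lowest background was taken as depth. Read totals are unknown, and no interval is given. Regions were given to the nearest of 21631 RefSeq protein-coding genes (GRCm38.p6) within 50 kb. All 380 entries of the 15 gene lists matched.

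Counts of gained and lost regions carry no test. Ranks, over regions called in all 4 libraries, were compared with limma 3.58.1 in R 4.3.3 with Benjamini-Hochberg adjustment, tested on simulated data. Peak numbers were compared by an exact permutation test. Named regions were the 12 gained and 12 lost of highest smaller fold enrichment held by all 3 ways of calling, the 10 largest rank differences in each direction (1 of them is not reported here), up to 4 regions per list and direction, Bcl11a and Itga6, and regions on a gene start; others are said to be chosen after their values were seen. Alternatives were the peak threshold, summit windows, stricter merging, other ranks, a replicate block, a fit of all 8 libraries and leaving out each library.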

Additional observations from a re-analysis of the deposited data

Results flagged for a closer look

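At 50 regions gained in T2 by all 3 ways of calling, the T1 libraries showed the reverse, a peak in both WT T1 and in no MUT T1 library. Every T2 library of one genotype and every T1 library of the other had a peak there, and the difference between the populations was not tested. The one with the highest fold enrichment lies inside Nebl, which encodes an actin-binding protein, with 11.4 and 9.75 in MUT T2 and 10.8 and 8.62 in WT T1. The definition itself leaves out any site with a peak in MUT T1 replicate 1 (background 3.38) or MUT T1 replicate 2 (2.04). How much depth contributed at these sites was not tested.

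At 6 regions lost in T2 by all 3 ways of calling, both MUT T1 and no WT T1 library had a peak, and this difference was not tested either. They lie near or inside Unc93a2, Fgf14, Sema5a, Lpp and Mecom and at a site on chromosome 4 that is 91.2 kb from a gene. The Unc93a2 region had 6.96 and 7.95 in WT T2 and 6.61 and 5.60 in MUT T1.

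Chromosome Y was left out of the comparison. In it, 2 regions had a peak in both MUT T2 and in no WT T2 library. The smaller fold enrichment in MUT T2 was 6.41 in the region that starts at 90761351 and 5.04 in the one that starts at 90804770. MUT T2 replicate 2 had a peak in both regions but none at the Y-linked genes named above. Whether these peaks come from chromosome Y was not tested.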

How the results depend on the processing

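The counts of gained and lost regions were the results that moved most. With equal numbers of peaks and regions merged anew there were 1572 gained and 1328 lost regions, against 3631 and 422 as deposited, and windows of 250 bp on each side of the summits gave 661 lost regions. Leaving out 1 library gave 6036 to 9062 gained and 1076 to 2675 lost regions, since 3 libraries set a looser rule than 4. The share within 2 kb of a gene end was 10.7% of gained and 13.0% of lost regions, against 5.87% and 9.72% within 1 kb. With equal numbers of peaks in the T1 lists 37 losses recurred in T1, against 56, and without MUT T1 replicate 2 there were 544 recurring gains, against 203; that alternative was added after the data were seen. Of the 24 named gained and lost regions, 1 was not held when merging needed 50% overlap, and none was reversed.

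The replicate block left 0 regions past the threshold in the rank comparison, with 4841 at p under 0.05 before adjustment, against 4471. The labels tie same-numbered libraries by number alone, though replicate 1 of every group had peaks at Y-linked genes and replicate 2 had none. Deviations of same-numbered libraries correlated at 0.0208 across regions. The count was also 0 under every other rank setting and without each library. Of the 20 named rank differences, that near Rap2b was reversed when pileups were ranked, at −0.0098; the cause was not tested. The depth of WT T2 replicate 2 limits what can be called lost or unchanged in T2.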
